A study of Arabidopsis thaliana with 31 samples.

Results

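The transcripts described here are those of the mitochondrial and plastid genomes that were recovered by poly(A)-seq. Members were all reads aligned to a gene whose identifier begins with ATMG (mitochondrion) or ATCG (plastid), which gave 115 of the 19829 genes with a read and 5441 of 2786281 reads (0.195%; 95% Clopper-Pearson interval, 0.190 to 0.201%). Poly(A)-seq was performed once, on Col, the wild type, with whole 2-week-old seedlings kept for 14 days at 23 °C on MS plates with sucrose (3% per the labels, whereas the study's methods give another concentration), with 16 h of light and 8 h of darkness. Total RNA was treated with DNase, cut with RNase T1, which cleaves after guanosine, and selected for poly(A), and an adaptor was joined behind the tail. The study measured the AtPAB poly(A)-binding proteins in several other assays, which were not used here. With 1 library, no value below has a replicate error and no test was made. No molecular identifier was read, so several reads can stem from a single molecule, and the intervals cover counting error only.

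In the cytosol, a poly(A) tail is bound by poly(A)-binding proteins and is linked to the stability and translation of an mRNA. In plant mitochondria and plastids, as in bacteria, poly(A) is added to RNA fragments and processing by-products and marks them for exonucleases. Ribosomal RNA (rRNA) is the most abundant RNA of both organelles, and the plastid 23S rRNA is cut at internal sites in the mature ribosome.

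The annotation used, RefSeq TAIR10.1, names the organelle genes by other identifiers. The most read members were therefore placed by their 3′ ends. The authors took as the tail a stretch of A at the end of the read that opened with at least 5 A and could hold some G further on. A trimmed read should therefore rarely end on a genomic A, while genomic G within such a stretch was not considered here. Among nuclear genes, 1.28% of the reads on the strand of the transcript ended on an A, and 80.5% ended directly before one. For each member, every start on both strands of both organelle genomes was scored by the number of distinct ends that lay before an A, less the number that lay on an A. These base shares were thus used for the placement and are a description only, whereas the annotated gene starts and lengths were not used.

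For ATMG01390, the best of 1044572 starts was position 128223 on the minus strand of the mitochondrial genome, with a score of 44 against 34 for the next. This is the annotated first base of rrn18, the RNA of the small mitochondrial ribosomal subunit (126289 to 128223, minus strand). The furthest end of ATMG01390, base 1935, equals the length of rrn18, the only annotated organelle gene of that length among 413. For ATCG00950 and ATCG01180 together, the best starts were plastid position 104691 on the plus strand and 133958 on the minus strand, with a score of 18 against 16. These are the first bases of both copies of the 23S rRNA gene in the inverted repeat (104691 to 107500 and 131149 to 133958), which are the only annotated genes of 2810 bases, the furthest end of either member.

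ATMG00020 was less certain. Its 183 distinct ends gave no clear place (best score 37 against 36), so the ends were searched in 3 parts of 61, a step chosen after seeing the data. The part nearest the 5′ end, bases 35 to 997, was best placed with base 1 at position 143279 on the minus strand (25 against 20), inside rrn26, the RNA of the large mitochondrial ribosomal subunit (140797 to 143965, minus strand). Base 1 would then lie 686 bases inside rrn26, and no annotated gene has the length of the furthest end, base 2523. From this start, rrn26 has only 2483 bases up to its last base, so the furthest end would lie past the annotated gene. The other parts were not placed at rrn26 by the whole search: the middle part scored 21 at its best start elsewhere and 19 at 143278, and the part nearest the 3′ end scored 19 elsewhere and 15 at 143278. Position 143278, a shift of 1 base, was their best start only within 15 nt of 143279. ATMG01380 had only 7 distinct ends and could not be placed in this way. Its furthest end, base 118, equals the length of rrn5, the mitochondrial 5S rRNA (126001 to 126118, minus strand), the only annotated organelle gene of that length.

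The following reference stretches (RefSeq, TAIR10.1) show where the rRNA reads stopped, because the bases after each stop tell whether a tail could be part of the genome. The capital marks the last base of the trimmed reads, and the letters after it are the genome. Any A directly after the capital may have been in the RNA and removed with the tail. Where an A follows, the RNA may therefore have ended further on than the marked base.
rrn18 base 1935, mitochondrion:126279-126308, minus strand: cctgtggctggattgaatcCttcgcgatgg
rrn18 base 1742, mitochondrion:126472-126501, minus strand: aatatgtacccgggccctgTacacaccgcc
rrn18 base 918, mitochondrion:127296-127325, minus strand: gaaactcaaaggaattgacGggggcctgca
23S rRNA base 1751, plastid:106422-106451, plus strand: gggagaaggggtgcctcctCacaaaggggg
23S rRNA base 2810, plastid:107481-107510, plus strand: cccaagatgagtgctctccTattccgactt
23S rRNA base 283, plastid:104954-104983, plus strand: aaacggggttgtgggagagCaaaaaaagcg
The first 5 of these stops had at most a single A directly after them. Base 283 of the 23S rRNA was the exception among the stops shown, with a genomic run of 7 A.

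The mitochondrial genome gave most of the organelle reads. In whole seedlings, a lower read number from fewer cells, from less RNA per cell or from fewer tailed molecules cannot be told apart. In all, 5158 reads lay on 88 mitochondrial genes (0.185% of all reads; 0.180 to 0.190%), while 283 reads lay on 27 plastid genes (0.0102%; 0.00901 to 0.0114%). The reads were concentrated on few genes. ATMG00020, ATMG01390 and ATMG01380 had 3202, 620 and 453 reads, together 82.9% of the mitochondrial reads (81.8 to 83.9%), and the other 85 genes shared 883 reads, with a median of 4 reads per gene and a maximum of 113. Without ATMG00020, mitochondrial genes held 0.0703% of the remaining reads. In the plastid, ATCG00950 and ATCG01180 had 91 and 89 reads, together 63.6% (57.7 to 69.2%), and the other 25 genes shared 103 reads. A single read represented 13 mitochondrial and 11 plastid genes.

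**Figure D1:**
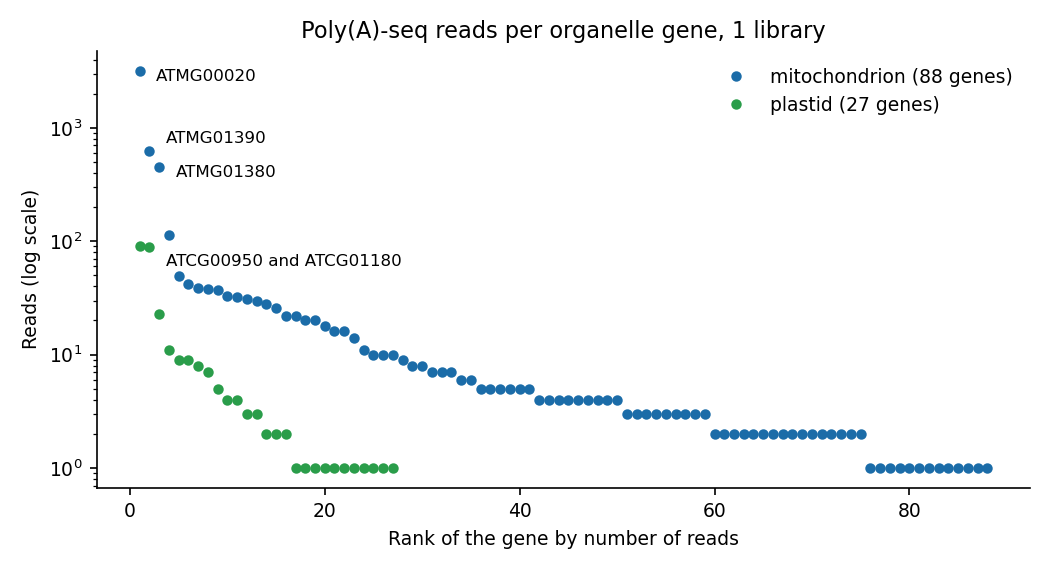
Poly(A)-seq reads per gene (log scale) against the rank of the gene, with a point for each of the 88 mitochondrial and 27 plastid genes of 1 library. The 3 most read mitochondrial genes, with 453 to 3202 reads, stand above all other members, whose maximum is 113.

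How well a read could be assigned differed between the organelles. The mapping quality, a score that is low where a read fits several places, was 0 or 1 for 7.31% of the mitochondrial reads, 81.3% of the plastid reads and 42.9% of the nuclear reads. All 91 reads of ATCG00950 and all 89 of ATCG01180 were of this kind, as both placements lie in the inverted repeat. Reads of these 2 members therefore cannot be told apart. The aligned part of the reads was longest for the mitochondrion, with a median of 92 nt (quartiles, 49 and 113 nt), against 63 nt for the plastid and 58 nt for the nucleus. This value follows ATMG00020, whose median was 110 nt, while ATMG01390 and ATMG01380 had medians of 52.5 and 46 nt. Reads that repeated the position of another made up 74.6% of the mitochondrial, 43.8% of the plastid and 71.5% of the nuclear reads. The sequence of the placed reads was also searched, without mismatches, in the nuclear chromosomes. None of the 619 rrn18 reads on the strand of the transcript was found there, and only 1 of the 180 reads of the plastid members was.

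The 3′ ends of the most read mitochondrial members followed opposite patterns. ATMG00020 had 2454 of its 3202 reads at a single base, 2474 (76.6%; 75.1 to 78.1%). Within 10 nt of it lay 82.1% of the reads. The reads at base 2474 had 61 different starts, but the largest set of identical reads held 795, and with identical reads counted once the share was 14.6%. The next most used end, base 1532, had 77 reads with 22 different starts, followed by bases 2478, 2469 and 2479 around the main end, with 37, 29 and 28 reads. Before base 2474, 581 reads (18.1%) were spread over 163 distinct ends, and 167 reads lay past it on 19 ends. If the start found for the 5′ part, or its shift of 1 base, also holds here, base 2474 is position 140806 or 140805, which is 9 or 8 bases before the annotated end of rrn26. The ends of the 3′ part did not by themselves favour this start, so the position is tentative and no base is marked. The longest run of A in the 30 printed bases was 3, and within 30 nt of position 140806 it was 4. Position 140806 is a G directly before AAA, whereas position 140805 is an A, on which trimmed reads should rarely end.
rrn26 3′ region, mitochondrion:140791-140820, minus strand: atctcgtactaaacgaaacgactttcactt

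Among the members with at least 20 reads, ATMG01380 had the highest share of reads at its main end. Of its 453 reads, 401 ended at base 117 (88.5%; 85.2 to 91.3%), 29 at base 118 and 19 at base 116. Together, 449 reads (99.1%) lay within 1 nt of base 117, and only 4 other ends were used. No read began at base 1, and the reads at base 117 had 31 different starts. With identical reads counted once, the share at base 117 was 64.6%. If base 1 is put at the annotated start of rrn5, the stop lies 1 base before the annotated end of the 5S rRNA. The genome continues with AA and then G, so the annotated last base is itself an A. As such an A can be trimmed with the tail, RNA that reached the annotated end could also be reported at base 117.
rrn5 base 117, mitochondrion:125992-126021, minus strand: gacatggtccaagcccggtGaagaaataaa

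ATMG01390, placed at rrn18, had the lowest share at a main end among the same members. Its 619 reads on the strand of the transcript used 179 distinct ends, and the main one, the mature 3′ end at base 1935, held 38 reads (6.14%; 4.38 to 8.33%). The other 581 reads (93.9%) ended inside the 18S rRNA. They were spread over its length, with 129 reads up to base 645, 237 from base 646 to 1290 and 215 from base 1291 to 1934. The most used internal ends were base 1742 with 30 reads, base 918 with 24, base 1746 with 22 and base 1748 with 21. Within 10 nt of base 1742 lay 132 reads (21.3%) on 18 ends. The chance that 2 reads of the gene shared their end was 1.58%, against 58.9% for ATMG00020 and 78.9% for ATMG01380.

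The plastid 23S rRNA members also ended mostly inside the RNA. Of the 180 reads of ATCG00950 and ATCG01180, 17 (9.44%) ended at the mature 3′ end, base 2810. A cluster near base 1751 held the most reads, with 38 at base 1751 and 34 at base 1750, and 80 reads (44.4%) within 2 nt. Base 1712 upstream of it had 16 reads. Within 50 nt of base 1751 lay 110 reads (61.1%) on 13 ends. Both members showed the same ends: 18 end bases were shared, and these held 77 of the 91 reads of ATCG00950 and 80 of the 89 reads of ATCG01180. As their reads cannot be told apart, this is a single pattern.

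**Figure D2:**
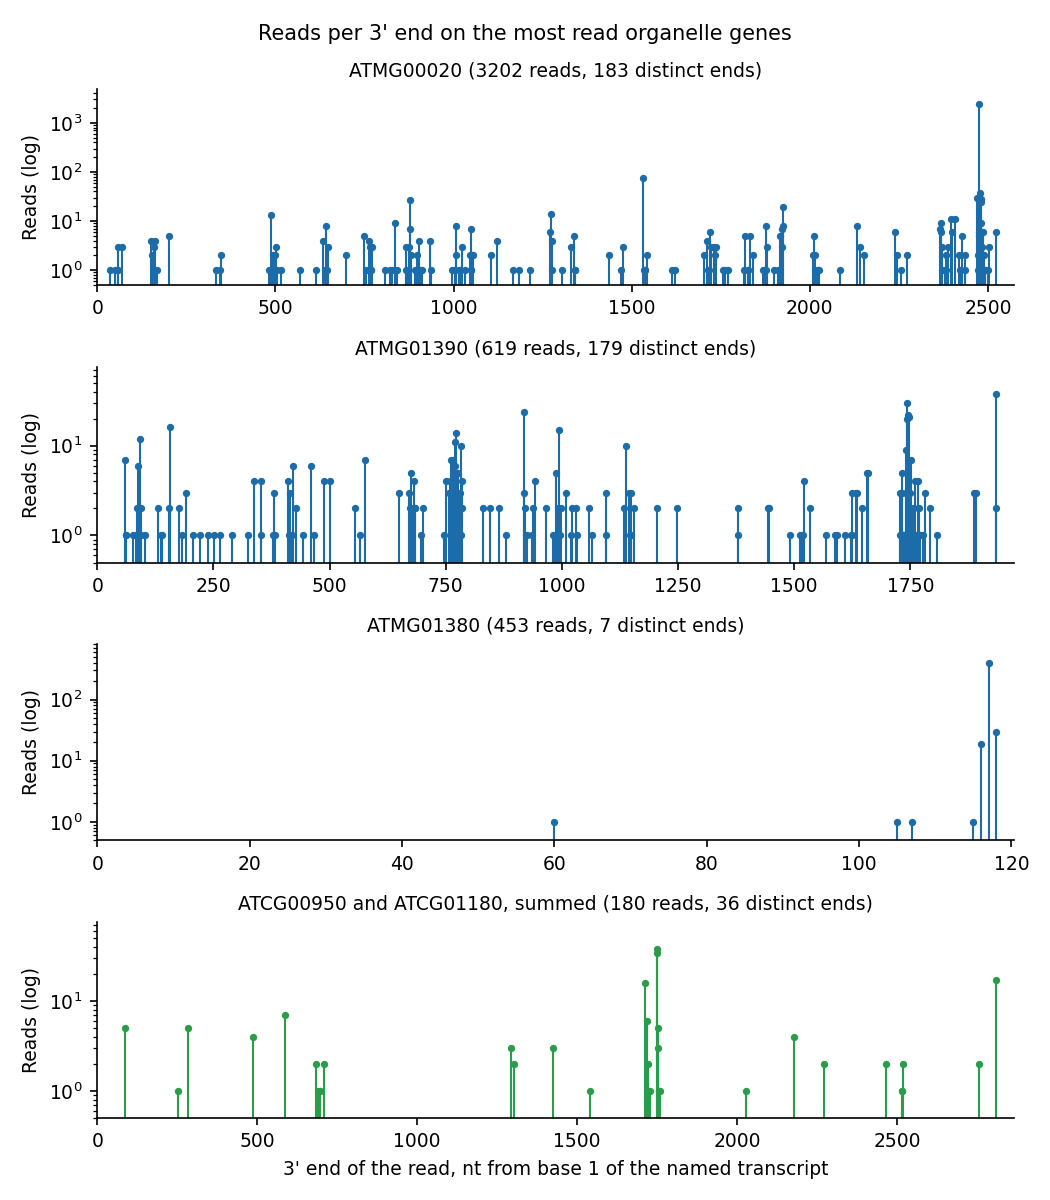
Reads per 3′ end (log scale) along ATMG00020, ATMG01390, ATMG01380 and the summed plastid members ATCG00950 and ATCG01180, by distance in nt from base 1 of the named transcript. ATMG00020 and ATMG01380 are dominated by a single end, at base 2474 and base 117, whereas ATMG01390 has 179 ends, and the plastid members peak near base 1751.

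A genomic run of A after an end could be read as a tail or could bind oligo(dT). None of the 619 rrn18 reads ended before a run of 5 or more A in the genome, the smallest run that the authors' definition of a tail opens with, and the longest run was 4. No A at all followed for 361 reads (58.3%), a single A for 196 (31.7%) and 2 A for 44 (7.11%). For the plastid 23S rRNA, 5 of 180 reads (2.78%) ended before such a run, all at base 283, and 65 (36.1%) had no A after them. Another 20 (11.1%) ended before a run of 4 A, 16 of them at base 1712. The share before a run of 4 A was 0.969% for rrn18 and 3.94% for nuclear genes. Among 2632482 placed nuclear reads, 2.31% ended before a run of 5 or more A, and 19.5% had no A after them. The A after the end served to place the rRNA members, so the shares are given side by side without a comparison.

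**Figure D3:**
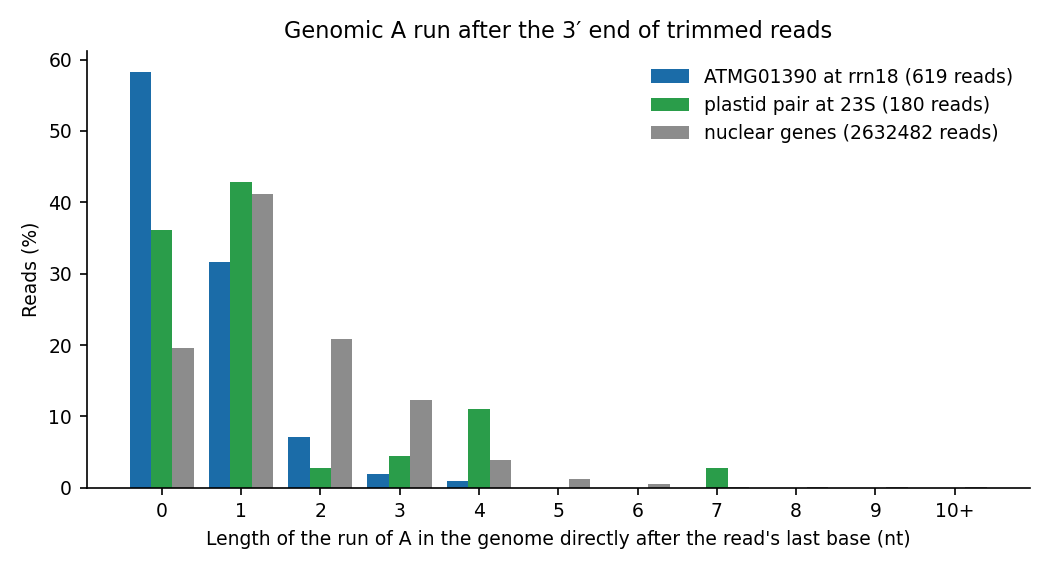
Percent of reads by the length in nt of the run of A that follows directly after the read's last base in the genome, for ATMG01390 at rrn18, for the plastid members at the 23S rRNA and for nuclear genes. No rrn18 read is followed by more than 4 A, and 58.3% are followed by none.

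Over the 18 mitochondrial genes with at least 20 reads on their main strand, the share at the main end had a median of 24.4%, and ranged from 6.14 to 88.5%. Over 9867 nuclear genes with at least 20 reads the median was 27.4%. Among nuclear genes the median fell with read number, so classes were set side by side: among genes with 20 to 99 reads, 14 mitochondrial genes had a median of 23.7% and 6443 nuclear genes 27.8%. Among genes with 100 or more reads, the 4 mitochondrial genes lay at 6.14, 32.1, 76.6 and 88.5%, and the 3424 nuclear genes had a median of 26.6% with quartiles of 17.4 and 39.8%. The fourth of these mitochondrial genes, ATMG01170, had 113 reads with 36 at base 266. Thus 2 of the 4 lay above the upper nuclear quartile and 1 below the lower.

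**Figure D4:**
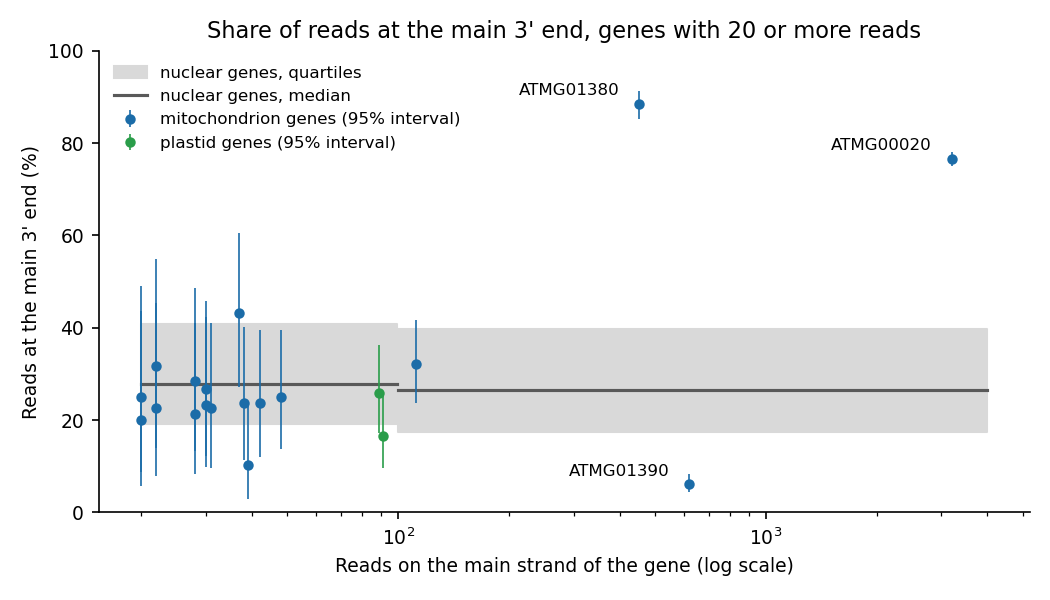
Percent of reads at the main 3′ end against the reads on the main strand (log scale) for each member with at least 20 reads on that strand, with 95% Clopper-Pearson intervals. The median and quartiles of nuclear genes are drawn behind them in both classes of read number. ATMG01380 (88.5%) and ATMG00020 (76.6%) lie above the nuclear quartiles and ATMG01390 (6.14%) below them.

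Apart from the rRNA members named above, products were known only where the notes of a nuclear gene name a mitochondrial identifier as its best protein match. Such notes covered 45 mitochondrial identifiers, of which 30 had reads (323 in all). The groups below hold only these genes, so their counts are not totals for a complex. Subunits of ATP synthase, which makes ATP from the proton gradient, were the largest group, with 5 genes and 101 reads, 1 of them antisense. Its most read gene with such a note was ATMG01190 (ATP synthase subunit 1). The 39 reads of ATMG01190 used 23 ends and all had a mapping quality of 0 or 1. Cytochrome c oxidase, the terminal oxidase of respiration, had 2 genes and 82 reads. ATMG00730 (subunit 3) had 49 reads, of which 12 ended at base 480, 12 at base 485 and 10 at base 69. ATMG01280 (subunit II-like) had 33 reads, with 7 at base 156. Of these 33 reads, 32 had a mapping quality of 0 or 1, so their origin is uncertain. For ATMG00730, 13 of the 49 reads were of this kind. Cytochrome c maturation, which attaches haem, had 2 genes and 34 reads, and NADH dehydrogenase, the entry point of electrons, had 3 genes and 21 reads. Ribosomal proteins had 4 genes and 20 reads, 8 of them antisense, and cytochrome b had 2 genes and 4 reads.

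Members without a product differed in how closely their ends lay together. ATMG01370 had 16 of 37 reads at base 218 and 11 at base 217, and 81.1% lay within 2 nt of base 218. ATMG00660 had 10 of 42 reads at base 421, and 71.4% within 10 nt. For ATMG00690, 9 of 38 reads (23.7%) ended at base 600, its furthest end, no other read lay within 10 nt of it, and 12 distinct ends were used. Ends of the less read members rest on few reads, and 61 of the 88 mitochondrial genes had fewer than 10.

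Reads antisense to the named transcript were rare among the mitochondrial reads and frequent among the plastid reads. They were 89 of 5158 mitochondrial reads (1.73%; 1.39 to 2.12%), 42 of 283 plastid reads (14.8%; 10.9 to 19.5%) and 4.51% of the nuclear reads. These values depended on the most read members. Only 1 of the 4275 reads of ATMG00020, ATMG01390 and ATMG01380 was antisense, against 88 of 883 reads (9.97%; 8.07 to 12.1%) of the other mitochondrial genes. None of the 180 reads of ATCG00950 and ATCG01180 was antisense, against 42 of 103 (40.8%; 31.2 to 50.9%) of the other plastid genes. With identical reads counted once, the antisense share was 4.58% in the mitochondrion and 10.1% in the plastid.

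**Figure D5:**
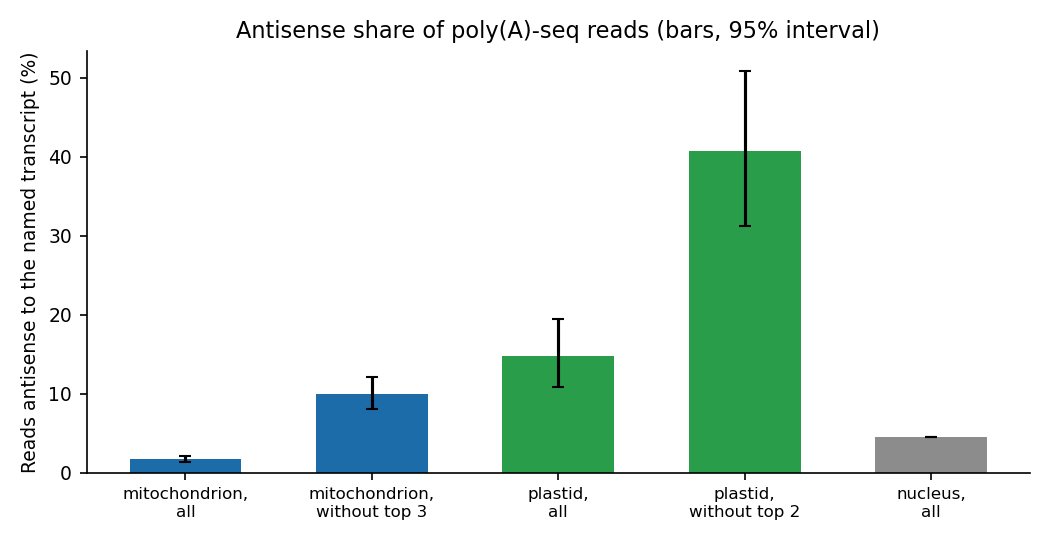
Percent of reads antisense to the named transcript (bars) with 95% Clopper-Pearson intervals, for all reads of each genome and for the organelles without their most read genes. The share was 9.97% without the top 3 mitochondrial genes and 40.8% without the top 2 plastid genes, against 4.51% over the nuclear genes.

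Antisense reads came from few ends in several members. ATCG01130 had the highest antisense share of the members with at least 20 reads, with 15 of 23 reads. Of these, 11 ended at base 529, with 3 different starts, and 4 at base 2908, with a single start. ATCG01000, which tied with ATCG00190 for the fifth most reads in the plastid, had 8 of its 9 reads antisense. All 8 ended at base 529, the same base number as in ATCG01130. The 11 reads of ATCG01130 at base 529 and all 9 reads of ATCG01000 had a mapping quality below 10, so their origin is uncertain. Whether both ends are a single site was not tested. They held 11 and 8 of the 42 antisense plastid reads. ATCG00190 had 9 reads, all antisense, and 7 of them ended at base 1166 as 1 set of identical reads, none with a mapping quality of at least 10. ATCG01210 had 11 reads, none antisense, with 4 at base 1245 and all with a mapping quality of 0 or 1. In the mitochondrion, 17 genes had more antisense than sense reads, and 15 had only antisense reads. Whether these reads belong to a neighbouring gene on the other strand was not tested.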

How the data were processed

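One poly(A)-seq library was used, and the other samples of the series were not used here. The authors removed random bases, adaptor and poly(A) tail and aligned the reads with Bowtie2, and the build named in the submitters' processing notes is TAIR10. The deposited alignments give a transcript, a start, an end and a strand, with positions in the transcript in nt, and a mapping quality, a score that was deposited with each read and runs from 0 to 42. The tails are not part of the alignments, so whether every read carried one was not tested. A read's 3′ end was its end on the strand of the transcript and its start on the other. Each gene's main end was the most used base on the strand with most reads. Sequences came from RefSeq TAIR10.1, whose mitochondrial sequence may differ by single bases from the one behind the alignments. Nuclear reads were searched without mismatches in the organelle genomes, after a look-up of 16 bases. The genes named were the 10 mitochondrial and 5 plastid genes with the most reads, those with the highest antisense share and the highest and lowest main-end share among members with at least 20 reads, and 3 nuclear genes. ATCG01000, ATMG00590, ATMG01080 and ATMG01090 fall outside it and were picked with their values in view. Members and lists were chosen with earlier results of these data known. The scripts ran with pandas 2.3.3, scipy 1.17.1, numpy 2.4.6, matplotlib 3.10.9 and Python 3.11.15, and the steps were tested on simulated data. Alternatives were tried for mapping quality, identical reads, strand, read minimum and width of an end.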

Additional observations from a re-analysis of the deposited data

How the results depend on the processing

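No paired analysis was possible because a single library was measured. With a mapping quality of at least 10, mitochondrial genes held 0.296% of reads, plastid genes 0.00291%, 55 mitochondrial and 15 plastid genes had a read, the antisense shares were 0.919% and 28.3%, and the median main-end share was 33.3%. Counting identical reads once gave 0.165% and 0.0201% of reads, 4.58% and 10.1% antisense and a median of 20.9%, and the main end of ATMG00020 held 14.6%. On the strand of the transcript, the mitochondrial share was 0.190%. Without its most read gene, each organelle held 0.0703% or 0.00689% of reads, with 4.55% or 21.9% antisense. A minimum of 10 reads left 27 mitochondrial and 4 plastid genes, a minimum of 2 left 16 plastid genes, and a minimum of 50 reads per gene gave a median of 54.4% over 4 genes. Within 10 nt, the main end of ATMG00020 held 82.1%. No value could be had at a mapping quality of at least 10 for the main ends of ATMG01190, ATCG00950, ATCG01180 and ATCG01210, and those of ATMG01280, ATCG01130 and ATCG00190 held 0 of the 1, 4 and 2 reads left. Depth limits most members: 61 of 88 mitochondrial and 23 of 27 plastid genes had fewer than 10 reads. The causes of these changes were not tested beyond the reads and genes left out.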

Other observations

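Mitochondrial sequence also occurs in the nucleus, mainly in a stretch of chromosome 2 that carries a copy of mitochondrial DNA, so reads named for nuclear genes were searched in the mitochondrial genome. The full sequence of 1581 reads on 78 nuclear genes was found there (0.0573% of the reads searched), and 1523 of them lay on 68 genes with identifiers beginning AT2G07. Whether such a read came from the nucleus or the mitochondrion cannot be told apart. AT2G07718 had 459 such reads of 459, AT2G07671 376 of 376 and AT2G07777 133 of 168. The mitochondrial identifiers that their notes name had fewer reads. ATMG00590 (cytochrome b/b6 protein) had 2 reads, ATMG01080 (F0-ATPase subunit 9) had 10 and ATMG01090 (ATP synthase 9) had 30. Over all 30 such pairs, the nuclear gene had more reads in 14, fewer in 13 and the same number in 3. Whether the genes of a pair cover the same stretch of sequence was not tested, so these counts do not compare the same RNA.

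The 3′ ends of these reads were set against the mitochondrial genes with a symbol. Of the 998 reads that fitted a single place in the mitochondrial genome, 136 (13.6%) ended inside such a gene on the same strand, introns included. Of these, 32 lay at 21 ends in atp1, a subunit of ATP synthase. The share of the mitochondrial genome inside such genes was not computed, so the 13.6% has no background value. For 166 reads, the end was 128 nt downstream of atp8 or, in a second copy of the sequence, at position 206217. Downstream of atp9, which encodes a subunit of the membrane ring of ATP synthase, 86 reads ended 190 nt past the gene. Only 62 of these 86 reads fitted a single place. The most used end with a single place was position 206455, with 87 reads, 1125 nt past nad4. Closer to nad4, a subunit of complex I, 34 reads ended 31 nt and 29 reads 30 nt past the gene. Another 51 reads on the minus strand and 21 on the plus strand ended at the base directly before trnS(GCT), a serine tRNA gene with a copy on each strand, of which 45 and 15 fitted a single place. The sequences are shown because none of the ends shown, chosen after their values were seen, has a long run of A after it. The capital marks the last base of the trimmed reads, and an A directly after it may have been removed with the tail.
past atp8, mitochondrion:246878-246907, minus strand: tcaggcttgactcattcgcTagcttctcct
past atp9, mitochondrion:270761-270790, minus strand: gttggggaacaaaatcttcCttgttagtta
past nad4, mitochondrion:207539-207568, minus strand: aaagaaaagaaaaacgggtCaacatcttaa
before trnS(GCT), mitochondrion:321936-321965, minus strand: aaaattccgatcaacaactTggagggatgg
Of the reads that fitted a single place, 31.4% ended before an A, 3.41% ended on an A, and 20 ended before a run of 5 or more A.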
